A study of Mus musculus with 12 samples.

Results

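The unfolded protein response and the amino acid response were followed in mouse hearts through 10 genes: Atf4, Ddit3, Xbp1, Hspa5, Herpud1, Hsp90b1, Pdia4, Dnajb9, Trib3 and Asns. Each gene was represented by the brightest of the array probes that carry its symbol in the platform annotation, and all 10 were found among the 17679 genes tested. Dnajb9 had 2 probes and each of the other genes had 1. Balb/c mice, an inbred laboratory strain, had been gavaged a single time with DMA, a compound whose name the labels do not spell out, at 30 mg/kg body weight, or with its vehicle DMSO. The hearts were profiled on 12 1-colour arrays in 4 groups of 3: DMA at 24 h, DMSO at 24 h, DMA at 48 h and DMSO at 48 h. No group carried a genetic change, and the sources used here give neither age nor sex. According to the design text total RNA was prepared from the pooled hearts of each group. The spread between the 3 arrays of a group may be partly technical, and the p-values measure only that spread.

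The unfolded protein response is the reaction of a cell to badly folded protein in the endoplasmic reticulum (ER). Its sensors IRE1, PERK and ATF6 sit in the ER membrane. ATF6, once cleaved, and the product of spliced Xbp1 mRNA switch on chaperone genes, and PERK slows protein synthesis while favouring translation of Atf4 mRNA. ATF4 also serves the amino acid response, in which the kinase GCN2 senses a shortage of amino acids, and it raises transcription of Asns, Trib3 and Ddit3. Because XBP1 and ATF4 are controlled largely by splicing and translation, the array signal of their mRNA is not a reading of their activity. The sources used here do not say which Xbp1 form the probe sees.

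The values are log2 signals. The array medians were 6.03 to 6.04 at 24 h and 6.35 to 6.36 at 48 h, from which scaling within each time was inferred. DMA was therefore compared with DMSO at the same time, and levels across the times carry this offset. Likeness between arrays varied. When each array was set against the median profile of the rest of its time, r was 0.742 for DMA 24 h replicate 3, against 0.927 to 0.963 for the 11 other arrays. It held the lowest of the 6 values of its time for 31.4% of 14663 genes and the highest for 42.1%. It lacked 322 values, against 675 to 3997 on the other arrays. Its lowest value was 1.37, shared by 503 probes, against -1 to -0.217 on the other arrays. DMA 48 h replicate 3 held the lowest value for 26.2% of 14971 genes and the highest for 32.4%. Among the 10 cardiomyocyte markers, no array gave a value for Actc1 or Atp2a2, Tnni3, Myl2 and Pln had a value on DMA 24 h replicate 3 only and Tnnt2 on replicate 3 of both DMA groups only, Nppa had no named probe, and Ttn, the giant sarcomere protein titin, read 13.27 to 14.74 on the 10 arrays that gave it a value. Where present, Tnni3 read 13.56, Myl2 13.44 and Pln 13.73. Tnnt2 read 9.49 on DMA 24 h replicate 3 and 14.77 on DMA 48 h replicate 3. The missing values of these genes cannot be read as low signal. The cardiac identity of the tissue could thus be checked on few genes. In whole hearts, fewer cells of a type and less RNA per cell cannot be told apart.

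None of the 10 genes passed the test at 24 h, at 48 h or between the times. In limma, fitted over 35401 probes, 0 members had an adjusted p under 0.05 in each comparison, where the share of all probes was 0% at 24 h, 0% at 48 h and 0% for the difference of the DMA effects between the times. At an unadjusted p under 0.05 the member count was also 0 in each, against 3.03% of all probes at 24 h, 1.4% at 48 h and 1.96% for the difference between the times. With the replicate number as a block in the limma fit 1 member, Ddit3 at 24 h, had an unadjusted p under 0.05 (0.0484), where 4.35% of all probes did, and the smallest adjusted p of a member there was 0.693. Without the block the smallest limma adjusted p among the members was 0.871 at 24 h, 1 at 48 h and 0.999 between the times. What set the members apart from one another was the spread between arrays of the same group, which ran from among the largest of all genes for Hspa5 to among the smallest for Asns.

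**Figure D1:**
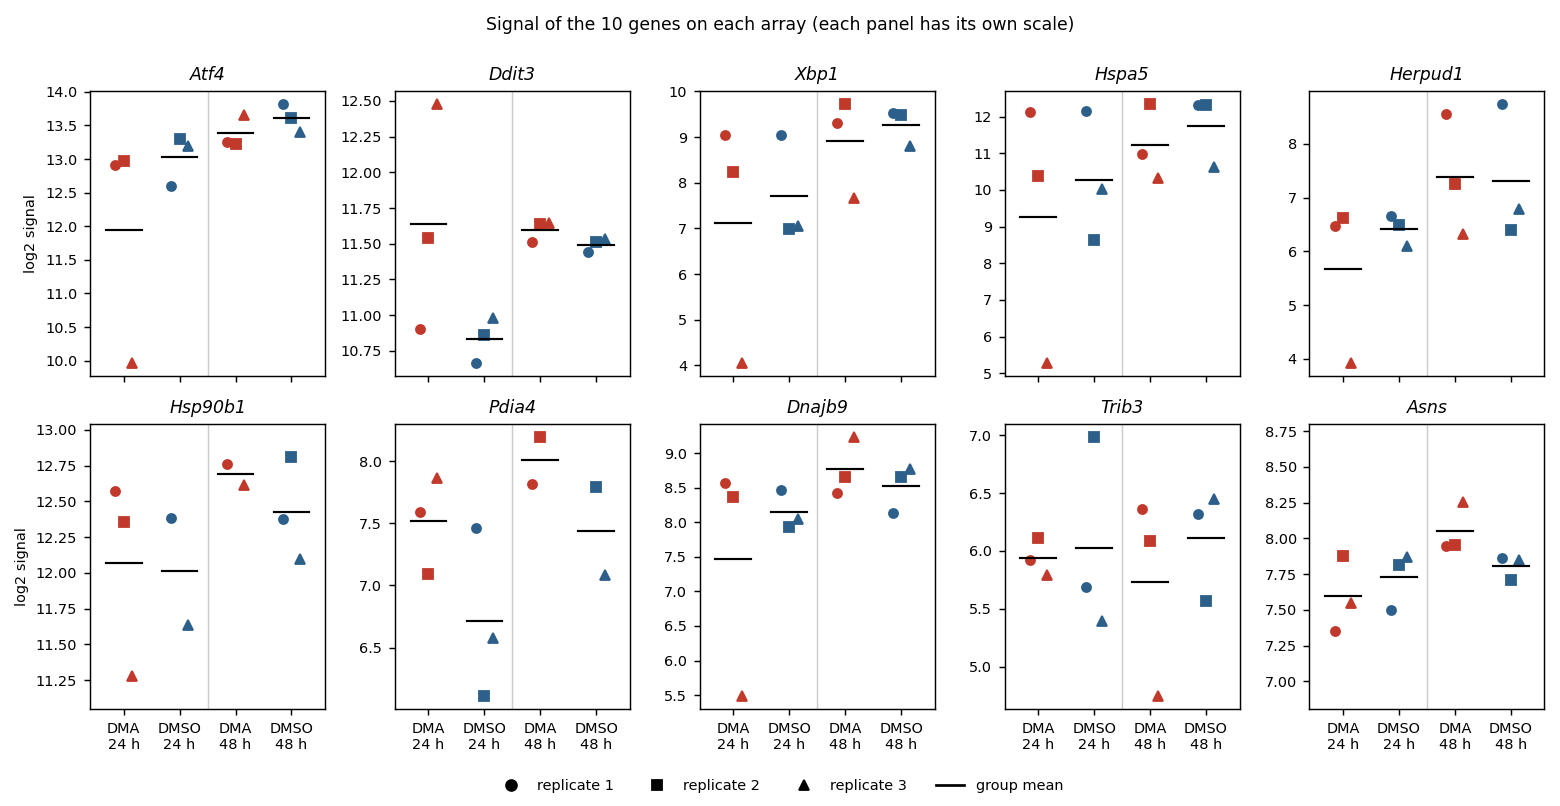
Log2 signal of the 10 genes on each of the 12 arrays, by group, with replicate numbers as symbols and the group mean as a bar. DMA 24 h replicate 3 lies far below the other 24 h arrays for Hspa5 (5.26), Xbp1 (4.04), Herpud1 (3.91), Dnajb9 (5.48) and Atf4 (9.96) and above them for Ddit3 (12.48).

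Among the ER chaperones, Hspa5 encodes BiP, the major Hsp70 chaperone of the ER lumen and the protein that holds the sensors inactive. It read 12.13, 10.39 and 5.26 on the DMA arrays of 24 h, against 12.16, 8.63 and 10.02 on the DMSO arrays. Both replicate 1 arrays were high, DMA replicate 3 was the lowest of the 12 arrays, and the groups overlapped. The difference was -1.01 (SE 1.48, 95% interval -4.26 to 2.24, limma adjusted p = 0.896). At 48 h Hspa5 read 10.98, 12.35 and 10.33 after DMA, against 12.30, 12.30 and 10.64 after DMSO, again with overlap and with replicate 3 low in both groups. That difference was -0.53 (SE 1.48, limma adjusted p = 1), with -1.10 without DMA replicate 2 and -0.08 without DMA replicate 3. Pooled within the groups, the SD of Hspa5 was 2.11 log2, larger than that of 99.2% of all genes, whose median was 0.665. Without DMA 24 h replicate 3 it was 1.3, larger than in 94.4% of genes. On its own array the Hspa5 probe outshone 96.4% of all probes on DMA 24 h replicate 1 and 35.1% on DMA 24 h replicate 3.

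Hsp90b1, which encodes the ER chaperone GRP94, had a value on 10 of the 12 arrays. At 24 h it read 12.57, 12.35 and 11.28 after DMA, against 12.38 and 11.64 on DMSO replicates 1 and 3. Its 48 h values were 12.76 and 12.62 on DMA replicates 1 and 3, against 12.38, 12.81 and 12.09 on the DMSO arrays. The groups overlapped at both times, and the differences were 0.06 (SE 0.495) and 0.26 (SE 0.495).

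Pdia4, a protein disulfide isomerase also called ERp72, behaved differently from Hspa5 on the array that stood apart. It read 7.59, 7.09 and 7.87 on the DMA arrays of 24 h, against 7.46, 6.11 and 6.57 on the DMSO arrays. DMA was higher in each same-numbered pair, by 0.134, 0.985 and 1.29, although DMSO replicate 1 lay above DMA replicate 2. The difference was 0.80 (SE 0.447, 95% interval -0.20 to 1.81, limma adjusted p = 0.871), and leaving out 1 array moved it between 0.50 (without DMSO replicate 2) and 1.18 (without DMSO replicate 1). At 48 h only 2 arrays of each group had a value, 7.815 and 8.20 on DMA replicates 1 and 2, against 7.79 and 7.09 on DMSO replicates 2 and 3. Both DMA values lay above both DMSO values, although the 7.815 of DMA replicate 1 and the 7.79 of DMSO replicate 2 were nearly equal, and the difference was 0.57 (SE 0.548). It was 0.22 without DMSO replicate 3 and 0.92 without DMSO replicate 2.

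Dnajb9 encodes ERdj4, an ER co-chaperone of BiP and a target of XBP1. Its brighter probe read 8.56, 8.37 and 5.48 after DMA at 24 h, against 8.47, 7.93 and 8.04 after DMSO. DMA replicates 1 and 2 were thus each above their DMSO partner, by 0.0919 and 0.438, and replicate 3 lay below its partner (pair difference -2.56). The second probe also had its lowest value of all arrays on DMA 24 h replicate 3, at 5.35. On the 48 h arrays the brighter probe read 8.43, 8.66 and 9.24 after DMA, against 8.14, 8.65 and 8.77 after DMSO. DMA was higher in each pair, by 0.29, 0.00856 and 0.47, with overlap between the groups. The second probe read 6.79, 6.55 and 8.23 after DMA at 48 h, against 6.52, 6.83 and 7.37 after DMSO. On it DMA was lower in pair 2. For the brighter probe the fitted differences were -0.68 (SE 0.684) at 24 h and 0.26 (SE 0.684) at 48 h. The 48 h difference became 0.02 when DMA replicate 3 was left out and 0.43 when DMA replicate 1 was.

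Herpud1 encodes a membrane protein of ER-associated degradation, the route by which misfolded proteins are returned to the cytosol. Its values at 24 h were 6.48, 6.63 and 3.91 after DMA, against 6.66, 6.49 and 6.10 after DMSO. Except for DMA replicate 3 all lay within 0.6 log2 of each other. The 48 h arrays spread more, with 8.56, 7.25 and 6.32 after DMA, against 8.75, 6.40 and 6.79 after DMSO. Replicate 1 was the highest in both 48 h groups, and the difference was 0.06 (SE 0.834), against -0.74 (SE 0.834) at 24 h.

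The upstream sequences of 4 members are shown because these are the ones in which a search of all 10 found a match to 1 or more of 3 motifs of the response, so they were chosen after the matches were seen. Xbp1 followed Hspa5 closely on the arrays (r = 0.962) and had no match, while Hsp90b1 also followed Hspa5 (r = 0.913 over 10 arrays) and had matches. Whether a match goes with how the genes varied on the arrays was not tested. Shown are the 250 bases before the RefSeq start of each gene in GRCm38.p6, 5′ to 3′ on the strand of the gene, at chr2:34771840-34772089 (plus strand) for Hspa5, chr10:86705445-86705694 (minus strand) for Hsp90b1, chr8:94386179-94386428 (plus strand) for Herpud1 and chr6:7693210-7693459 (minus strand) for Asns. Capitals mark matches to any of 3 motifs on either strand.
Hspa5: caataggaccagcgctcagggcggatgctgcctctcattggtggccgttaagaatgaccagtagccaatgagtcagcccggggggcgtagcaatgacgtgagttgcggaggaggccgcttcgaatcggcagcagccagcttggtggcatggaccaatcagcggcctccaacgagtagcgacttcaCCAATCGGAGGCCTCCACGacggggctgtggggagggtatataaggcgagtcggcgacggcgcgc
Hsp90b1: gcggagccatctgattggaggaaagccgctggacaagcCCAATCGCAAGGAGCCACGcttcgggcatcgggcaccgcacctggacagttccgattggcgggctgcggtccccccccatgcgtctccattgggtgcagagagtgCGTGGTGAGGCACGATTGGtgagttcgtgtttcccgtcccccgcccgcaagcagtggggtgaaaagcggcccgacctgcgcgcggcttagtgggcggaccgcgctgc
Herpud1: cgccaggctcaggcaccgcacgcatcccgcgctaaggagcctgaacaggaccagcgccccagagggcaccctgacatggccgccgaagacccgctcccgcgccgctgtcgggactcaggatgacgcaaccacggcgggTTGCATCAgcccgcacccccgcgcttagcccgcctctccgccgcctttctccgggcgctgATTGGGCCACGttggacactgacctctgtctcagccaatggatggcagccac
Asns: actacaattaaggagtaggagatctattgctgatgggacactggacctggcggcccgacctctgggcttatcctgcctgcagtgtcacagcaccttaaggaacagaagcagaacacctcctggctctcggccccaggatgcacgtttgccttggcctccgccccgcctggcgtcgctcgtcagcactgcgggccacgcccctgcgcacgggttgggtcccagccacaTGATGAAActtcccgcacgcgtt

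The first motif was the ER stress response element, CCAAT and CCACG with any 9 bases between them, which ATF6 is known to bind with NF-Y. The second was its variant, ATTGG and CCACG with any 1 base between them, and the third was TGATGNAA, the core of the composite element of ATF4 and C/EBP factors. Of 32851 upstream windows of this length from RefSeq, 0.113% held the first motif, 0.0304% the second and 3.45% the third. Motifs and members were both taken from what is known of the response. The shares therefore say how common each motif is and are no test of the members. Among the 10 members the first was found in Hspa5 at positions -65 to -47, where -1 is the last base before the start, and at 2 places in Hsp90b1, -212 to -194 and, on the opposite strand, -107 to -89. Herpud1 held the second motif at -52 to -42 and the third, on the opposite strand, at -112 to -105. Asns held the third motif at -23 to -16. The other 6 members had no match to these letters in this window. No 2 of these matches overlapped.

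Of the transcription factors, Xbp1 encodes the factor that IRE1 activates by splicing. At 24 h it read 9.04, 8.24 and 4.04 after DMA, against 9.05, 6.998 and 7.06 after DMSO. The order of the arrays was close to that of Hspa5, with both replicate 1 arrays high and DMA replicate 3 lowest. Its 48 h values were 9.32, 9.73 and 7.66 after DMA, against 9.52, 9.49 and 8.80 after DMSO, with replicate 3 the lowest in each group. The differences were -0.59 (SE 1.12) and -0.37 (SE 1.12), and the groups overlapped at both times.

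Atf4 encodes the shared factor of the PERK and GCN2 branches. It read 12.90, 12.97 and 9.96 on the DMA arrays of 24 h, against 12.60, 13.30 and 13.19 on the DMSO arrays. DMA replicate 3 was far below, and the other arrays lay within 0.7 log2 of each other. The difference of -1.08 (SE 0.671, limma adjusted p = 0.871) was -0.09 without that array. After 48 h they were 13.25, 13.23 and 13.66 after DMA, against 13.82, 13.61 and 13.40 after DMSO, a difference of -0.23 (SE 0.671) with overlap.

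Ddit3 encodes CHOP, a factor that acts downstream of ATF4 in prolonged ER stress. Its values at 24 h were 10.91, 11.54 and 12.48 after DMA, against 10.67, 10.86 and 10.98 after DMSO. DMA replicates 2 and 3 lay above every DMSO array and DMA replicate 1 lay below DMSO replicate 3, so the groups overlapped. The 6 arrays of 48 h were close together, with 11.51, 11.64 and 11.64 after DMA, against 11.44, 11.51 and 11.53 after DMSO. Ddit3 was higher on the DMA array in all 6 same-numbered pairs, by 0.24, 0.678 and 1.5 at 24 h and by 0.0728, 0.125 and 0.11 at 48 h. It was the only member to do so, and 1.93% of 12398 genes with 6 pairs did the same. Hsp90b1 and Pdia4 lacked some pairs and could not meet this rule. Pdia4 was higher after DMA in each pair that it had. The limma differences were 0.81 (SE 0.387, 95% interval -0.04 to 1.66, adjusted p = 0.871), a fold of 1.75, at 24 h and 0.10 (SE 0.387, adjusted p = 1) at 48 h. Without DMA 24 h replicate 3 the 24 h difference was 0.39. The pooled SD of Ddit3 within groups was 0.406, and 0.195 without that array, larger than in 6.21% of genes.

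Of the ATF4 targets, Trib3 encodes a pseudokinase that dampens AKT signalling and ATF4 itself. It read 5.92, 6.11 and 5.79 after DMA at 24 h, against 5.69, 6.99 and 5.39 after DMSO, and the 3 DMA values lay inside the range of the DMSO values. At 48 h it read 6.36, 6.08 and 4.75 after DMA, against 6.32, 5.57 and 6.45 after DMSO, with DMA replicate 3 the lowest of all arrays. The differences were -0.08 (SE 0.524) and -0.38 (SE 0.524).

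Asns encodes asparagine synthetase, the enzyme that makes asparagine from aspartate and glutamine and a standard readout of the amino acid response. Its 24 h values were 7.35, 7.88 and 7.55 after DMA, against 7.50, 7.81 and 7.87 after DMSO, with overlap and a difference of -0.13 (SE 0.299). At 48 h it read 7.95, 7.95 and 8.25 after DMA, against 7.86, 7.71 and 7.85 after DMSO. Here each DMA array lay above each DMSO array, and the pair differences were 0.0866, 0.242 and 0.4. The limma difference was 0.24 (SE 0.299, 95% interval -0.41 to 0.90, adjusted p = 1), a fold of 1.18. With a running-median trend along the probe numbers removed from each array it was 0.094. Asns had a pooled SD of 0.192 within groups, larger than that of 1.03% of genes, and without DMA 24 h replicate 3 it was 0.204, larger than in 7.72%. DMA 24 h replicate 3 lay inside the range of the other 24 h arrays for it.

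**Figure D2:**
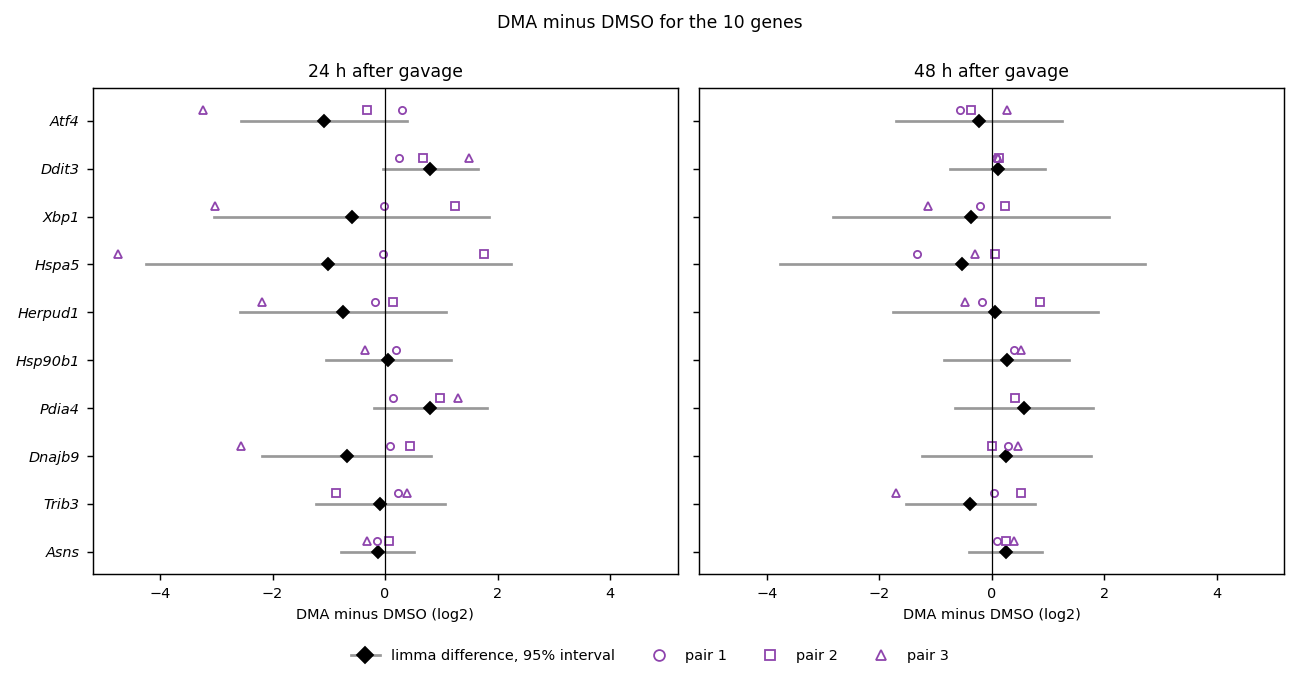
DMA minus DMSO in log2 for each gene at 24 h (left) and 48 h (right), as the limma difference with its 95% interval and as the differences of the same-numbered pairs. Every interval crosses 0, and pair 3 at 24 h lies far to the left for Hspa5 (-4.75), Atf4 (-3.23), Xbp1 (-3.02), Dnajb9 (-2.56) and Herpud1 (-2.19).

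Over the members as a list, 3 differences were positive and 7 negative at 24 h, with a median of -0.36, against 0.09 over all 17679 genes, of which 55.2% were positive. Without DMA 24 h replicate 3, 7 were positive and 3 negative and the median was 0.35, against 0.00281 over all genes. By pairs the 24 h medians were 0.113 in pair 1, 0.438 in pair 2 and -1.28 in pair 3. At 48 h 6 differences were positive and 4 negative, with a median of 0.08, against 0.00998 over all genes, and the pair medians were 0.043, 0.241 and 0.11. Without DMA 48 h replicate 3 the count was 8 positive and 2 negative.

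Groups without overlap were few. At 24 h 0 members were higher and 0 were lower on every DMA array, where 4.43% of genes were higher and 3.3% lower. At 48 h 2 members, Asns and Pdia4, were higher on every DMA array with a value and 0 were lower, where the shares of all genes were 3.93% and 2.32%. Pdia4 had only 2 values in each group at 48 h, and groups of 2 separate more easily than groups of 3. Among members with 3 pairs, Ddit3 and Pdia4 were higher in each pair at 24 h, 2 of 9 against 12.4% of 14663 genes, and 0 were lower in each, against 9.49%. At 48 h these were Ddit3, Dnajb9 and Asns, 3 of 8 against 15.1% of 14971 genes, and 0 were lower in each, against 9.79%. Dnajb9 met this by its brighter probe and not by its second.

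The deviations from the group means showed which members varied together. Across 12 arrays Xbp1 and Hspa5 had a Pearson r of 0.962 and a Spearman rho of 0.93, and without DMA 24 h replicate 3 an r of 0.882 and a rho of 0.873. Hsp90b1 and Hspa5 gave 0.913 and 0.915 over 10 arrays, and 0.75 and 0.817 over 9 without that array. For Pdia4 and Hspa5 r was 0.22 and rho 0.37 over 10 arrays, and 0.965 and 0.917 over 9 without that array. Dnajb9 and Hspa5 had an r of 0.789 and a rho of 0.531 with all arrays, and 0.0945 and 0.0273 without DMA 24 h replicate 3. Ddit3 went the other way from Hspa5, with r -0.875 and rho -0.727 with all arrays, and -0.557 and -0.527 without that array. Asns did so too, with an r of -0.35 with all arrays and -0.76 without that array. Atf4 and Hspa5 had an r of 0.695 with all arrays and -0.575 without that array. For Herpud1 and Hspa5 these were 0.629 and 0.2, and for Trib3 and Hspa5 -0.0689 and -0.261. These points share arrays, scaling and RNA pools, and the deviations of a group of 3 are not independent, so the values are descriptions. They are also not particular to the pathway: of 12397 other genes with a value on all arrays, 1149 (9.27%) had an r over 0.8 with Hspa5, and 559 (4.51%) without DMA 24 h replicate 3.

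**Figure D3:**
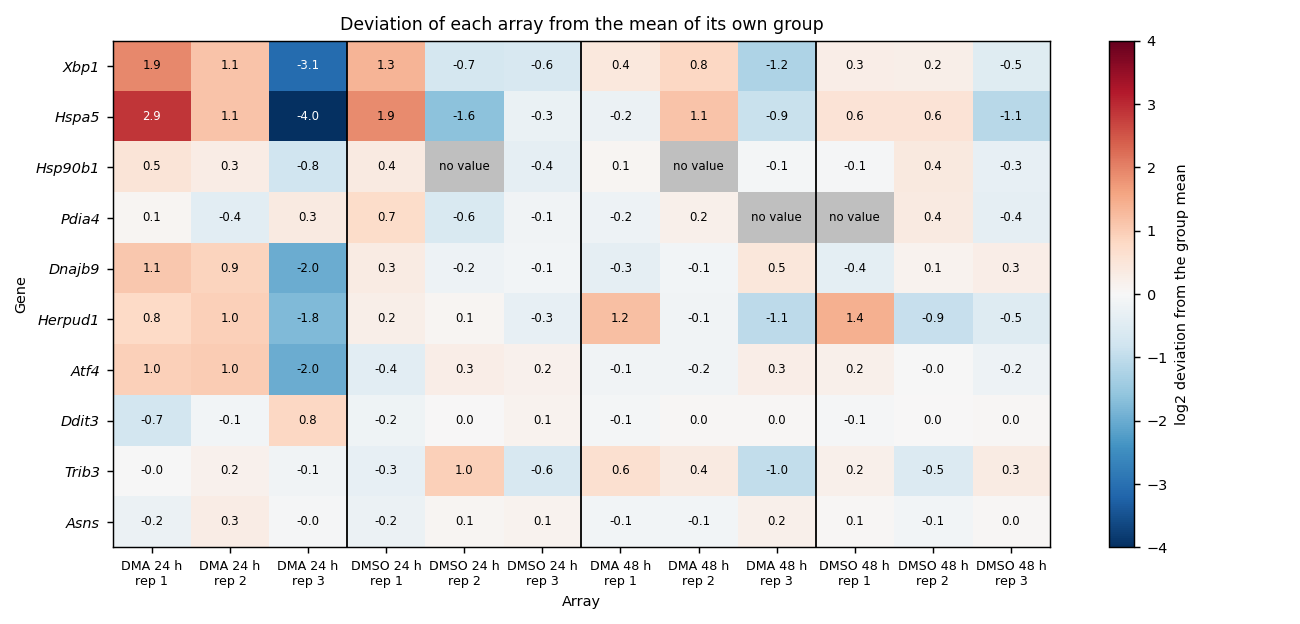
Deviation of each array from the mean of its own group, in log2, for the 10 genes, with grey cells where the table has no value. Xbp1 and Hspa5 share their high and low arrays, and the row of Asns stays near 0 throughout.

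The genes closest to Hspa5 in these deviations were Clec5a (r = 0.976), Txndc12 (0.968), Aox1 (0.967) and Dhrs4 (0.967), and without DMA 24 h replicate 3 their r lay between 0.898 and 0.937. Txndc12 encodes an ER thioredoxin-like protein. Those closest to Asns were S100pbp (0.902), Arid1b (0.897), Pik3c2b (0.889) and Helb (0.886), with 0.892 to 0.924 without that array.

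Cell type markers moved on the same arrays in part. Over the 4 of 7 endothelial markers with a value on all arrays, the mean log2 signal was 6.97 on DMA 24 h replicate 3, against a highest DMA value of 9.90 and DMSO values of 7.70 to 10.08. The markers moved apart on that array: Emcn (2.31) and Pecam1 (3.55) were the lowest of the 24 h arrays there, Tie1 (12.36) and Kdr (12.29), the second of which is not in the mean, were the highest, and Tek read 9.68. Of the others not in the mean, Cdh5 (3.47) was the lowest of the 24 h arrays with a value and Flt1 (4.07) lay inside their range. At 48 h the endothelial mean ran from 9.03 to 10.94 after DMA, against 9.95 to 11.07 after DMSO. The 4 of 7 fibroblast markers ran from 9.15 to 9.37 after DMA at 24 h, against 8.12 to 9.34 after DMSO, and from 9.28 to 10.57 after DMA at 48 h, against 9.52 to 10.65 after DMSO. Dcn and Col3a1, which lacked a value on 1 array and are not in that mean, read 5.87 and 6.87 on DMA 24 h replicate 3, while on the other 24 h arrays Dcn read 12.99 or more and Col3a1 13.28 or more. The fibroblast markers moved apart there too: Col1a1 (8.48) and Tcf21 (11.54) were the highest of the 24 h arrays and Col1a2 (5.31) the lowest. Pdgfra (12.14) and Lum (8.71), the second of which is not in the mean, lay inside the range of the other 24 h arrays. For the 4 of 7 macrophage markers the mean ran from 7.65 to 8.18 after DMA, against 7.04 to 7.99 after DMSO at 24 h, and from 6.84 to 8.56 after DMA, against 8.08 to 8.68 after DMSO at 48 h. On DMA 24 h replicate 3 C1qb (8.71) was the lowest and Cd163 (8.77) and Adgre1 (5.77) were the highest of the 24 h arrays. Mrc1 (7.33) lay inside the range of the other 24 h arrays. C1qa, which is not in the mean, had no value on that array. Giving single markers was decided after their values were seen. Plasma cell markers, of interest because these secretory cells rely on XBP1, covered 5.77 to 6.35 after DMA and 5.98 to 6.29 after DMSO at 24 h (5 of 6 markers), and 6.40 to 6.65 after DMA and 6.53 to 6.63 after DMSO at 48 h. The 5.77 was on DMA 24 h replicate 3, where these markers moved apart too. Sdc1 (5.035) and Prdm1 (4.99) were the lowest of the 24 h arrays, and Mzb1 (6.96) and Pou2af1 (7.08) the highest. Jchain (4.79) and Tnfrsf17 (6.84), the second of which is not in the mean, lay inside the range of the other 24 h arrays. The 2 cardiomyocyte markers with a value on all arrays, Myh6 and Ryr2, averaged 5.92 to 6.15 after DMA and 4.62 to 6.56 after DMSO at 24 h, and 5.87 to 7.74 after DMA and 6.001 to 7.82 after DMSO at 48 h. On DMA 24 h replicate 3 they moved apart. Myh6 (4.39) was below every other 24 h array but DMSO replicate 2, and Ryr2 (7.54) was the highest. Their mean signals lay above 54.8% and 47.6% of all probes, so both were near the middle of the array. Cela1, the single exocrine pancreas marker on all arrays, ran from 4.21 to 5.89 after DMA and from 4.89 to 6.06 after DMSO at 24 h, and from 4.31 to 5.59 after DMA and from 4.31 to 5.34 after DMSO at 48 h. The part of these cell types in the members' values was not tested.

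The other genes of the pathway, 78 in 6 lists, gave 0 calls in limma at either time, with 3 at an unadjusted p under 0.05 at 24 h and 0 at 48 h. Over all probes 3.03% had an unadjusted limma p under 0.05 at 24 h and 1.4% at 48 h, and 0% were called at either time. For the difference of the DMA effects between the times 0 of the 78 were called. By limma's unadjusted p 2 were under 0.05, where 1.96% of all probes were. These were Atf6b (-1.63, SE 0.7) and Chac1 (-2.74, SE 1.13). Atf6b differed by 0.83 at 24 h and -0.80 at 48 h (SE 0.495 each), and was singled out after its values were seen. At 24 h 44 differences were positive and 34 negative, with a median of 0.10, and at 48 h 41 were positive and 37 negative, with a median of 0.01. Of the sensors and eIF2 alpha kinases 8 of 9 were tested, with 0 called in each direction and medians of 0.11 at 24 h (5 positive, 3 negative) and 0.04 at 48 h. Without DMA 24 h replicate 3 the 24 h median was -0.11, with 3 positive and 5 negative. Ern1, which encodes IRE1, averaged 6.05 ± 0.306 after DMA and 6.03 ± 0.859 after DMSO at 24 h (SD, n = 3 each), a difference of 0.03, and differed by 0.09 at 48 h. Eif2ak3, which encodes PERK, averaged 8.12 ± 0.326 after DMA and 7.75 ± 0.375 after DMSO at 24 h, and 8.91 ± 0.349 after DMA and 8.56 ± 0.352 after DMSO at 48 h (SD, n = 3 each). Its differences were 0.38 (SE 0.361) and 0.35 (SE 0.361).

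Of the 16 ER chaperones and folding enzymes tested 0 were called, 6 were positive and 10 negative at 24 h (median -0.34) and 4 positive and 12 negative at 48 h (median -0.07). Without replicate 3 of the DMA group the counts were 11 positive and 5 negative at either time, with medians of 0.29 at 24 h and 0.10 at 48 h. Calr, encoding the lectin chaperone calreticulin, averaged 9.72 ± 0.135 after DMA and 9.26 ± 0.241 after DMSO at 24 h (SD, n = 3 each), a difference of 0.46 (SE 0.33), and differed by 0.04 at 48 h. Hyou1, an Hsp70-like ER chaperone, differed by -0.52 (SE 0.76) and 0.03 (SE 0.849), and Dnajc3, a co-chaperone that inhibits PERK, by -0.76 (SE 0.503) and -0.11 (SE 0.45), at 24 h and 48 h.

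ER-associated degradation had 13 tested genes and 0 calls, with 8 positive and 5 negative at 24 h (median 0.22) and 11 positive and 2 negative at 48 h (median 0.08). Without replicate 3 of the DMA group the positive counts were 5 at 24 h (median -0.05) and 9 at 48 h (median 0.12). Sel1l, the adaptor of the ubiquitin ligase complex of this route, differed by 0.57 (SE 0.424) at 24 h and 0.33 (SE 0.379) at 48 h, and Edem1, a lectin that targets glycoproteins to it, by 0.45 (SE 0.374) and 0.11 (SE 0.334).

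The 15 other targets of ATF4 and CHOP had 0 calls, with 6 positive and 9 negative at 24 h (median -0.30) and 8 positive and 7 negative at 48 h (median 0.05). Without DMA 24 h replicate 3 the 24 h counts were 10 positive and 5 negative, with a median of 0.16. Chac1, a glutathione-degrading enzyme, had the smallest unadjusted p of the 78 genes at 24 h. It read 5.61, 5.66 and 7.32 after DMA, against 5.65, 2.56 and 3.71 after DMSO. DMA replicate 3 was high, DMSO replicates 2 and 3 were low, and DMSO replicate 1 lay between DMA replicates 1 and 2. The difference was 2.22 (SE 0.799, limma adjusted p = 0.871), and 1.51 to 3.06 when 1 of the 24 h arrays was left out. At 48 h Chac1 differed by -0.52 (SE 0.799). Atf5 and Txndc5, which were singled out after their values were seen, were the other genes under 0.05 unadjusted at 24 h, with differences of 1.28 (SE 0.566) and 1.26 (SE 0.567). Atf5 differed by 0.757 without DMA 24 h replicate 3, and Txndc5 by 0.806 without DMSO 24 h replicate 2. Atf3 differed by 0.32 (SE 0.409) and 0.15 (SE 0.409), Ppp1r15a, whose product GADD34 reverses the phosphorylation of eIF2 alpha, by -0.79 (SE 0.612) and -0.17 (SE 0.612), and the stress-induced Sesn2 by -0.05 (SE 0.683) and -0.58 (SE 0.683), at 24 h and 48 h.

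Amino acid synthesis and transport had 15 tested genes and 0 calls, with medians of 0.27 at 24 h (10 positive, 5 negative) and 0.01 at 48 h (8 positive, 7 negative). Psat1 and Phgdh, enzymes of serine synthesis, differed by -0.03 (SE 0.393) and 0.87 (SE 0.733) at 24 h and by 0.15 (SE 0.352) and -0.72 (SE 0.819) at 48 h. Slc7a11, the cystine transporter, differed by -0.49 (SE 0.779) and -0.71 (SE 0.871). The 12 cytosolic aminoacyl tRNA synthetases, which load amino acids onto tRNA, had 0 calls and medians of 0.12 (9 positive, 3 negative) and 0.01 (7 positive, 5 negative) at 24 h and 48 h, the second of which was 0.16 (8 positive, 4 negative) without DMA 48 h replicate 3.

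**Figure D4:**
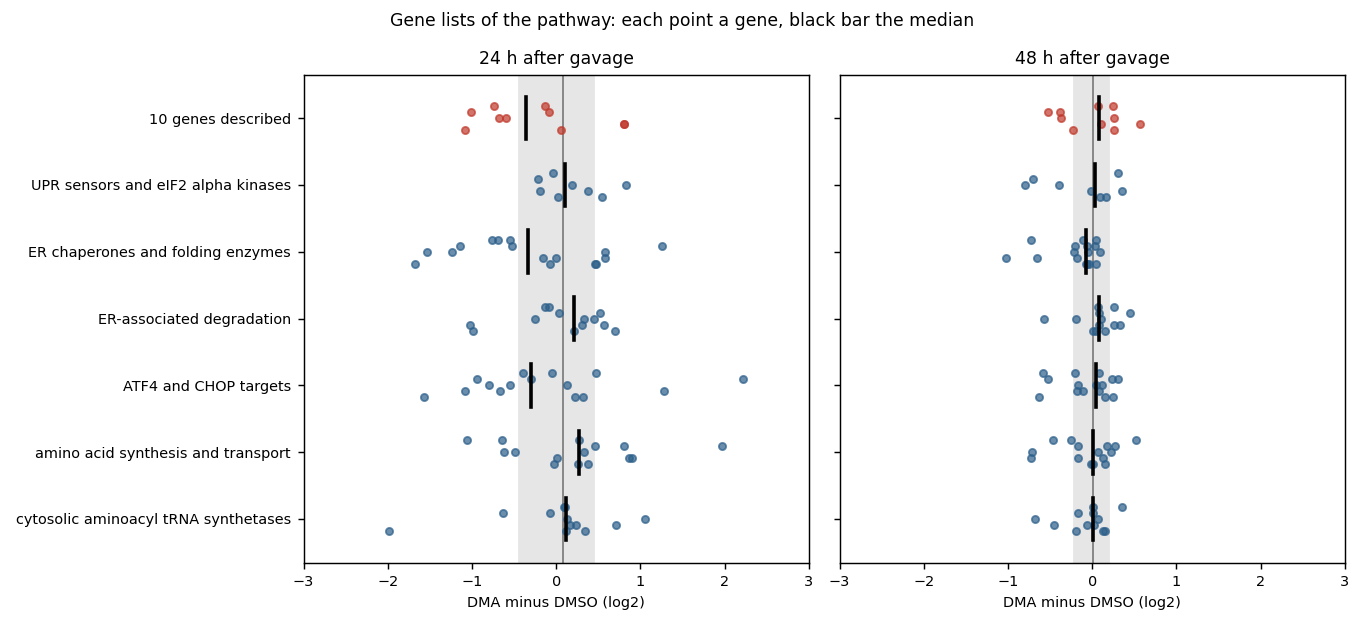
DMA minus DMSO in log2 at 24 h (left) and 48 h (right) for the 10 genes and for the 6 lists of other pathway genes, each point a gene and each black bar a median. The grey band spans the interquartile range of single genes over the whole table, -0.44 to 0.45 at 24 h and -0.22 to 0.20 at 48 h, and is a scale for the points, not for the medians. Chac1 (2.22 at 24 h) lies far outside it.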

How the data were processed

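Per the labels' protocols, polyA RNA of myocardium was copied into biotinylated cRNA and detected through streptavidin-Cy5 after hybridisation (1 colour). The authors deposited log2 values for 36227 probes; background correction and scaling are not given in the sources used here. Symbols came from the platform annotation (21615 probes with 1, 681 with several, 13931 with none). The 35401 probes with at least 2 values in each group entered limma 3.58.1 under R 4.3.3 (lmFit and eBayes, a term per group, all 12 arrays, no replicate block). Calls needed a Benjamini-Hochberg adjusted p, taken over every tested probe, under 0.05. Missing values were not filled in. A gene took its brightest tested probe, which gave 17679 genes. All members were named. From the pathway lists a preset set of 16 genes was to be named, of which Atf6 and Pdia6 were not analysed here, along with any gene that passed and the 4 genes most like Hspa5 and Asns. The members and lists were chosen with earlier results of these data known. Same-numbered DMA and DMSO arrays correlated in their deviations from the group means at 0.105 to 0.19 at 24 h and 0.276 to 0.335 at 48 h, against -0.0981 to -0.0118 and -0.208 to -0.0926 for other numbers, so the numbers were taken to pair arrays of a time; this pairing comes from the data. Alternatives were the replicate block, fits per time, array weights, quantile normalization, removal of the trend along probe numbers (running median over 2001 probes), a filter on dim probes, the mean of a gene's probes and leaving out arrays. The number of arrays limits the precision. Plots used matplotlib 3.10.9 and Python 3.11.15.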

Additional observations from a re-analysis of the deposited data

How the results depend on the processing

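The count of members with an adjusted p under 0.05 was 0 at both times and for the difference between the times under every alternative run, including the replicate block. The count at an unadjusted p under 0.05, which was 0 without the block, was 1 at 24 h under 5 limma alternatives. By limma's unadjusted p, it was Ddit3 with the replicate block (0.0484), with the filter on dim probes (0.0457) and without DMA 24 h replicate 1 (0.0105), Atf4 without DMA 24 h replicate 2 (0.0443) and Pdia4 without DMSO 24 h replicate 1 (0.0286). The smallest adjusted p of a member at 24 h over the alternatives ran from 0.534 to 1. For the single members, 62 of 69 values at 24 h and 68 of 69 at 48 h kept their sign under alternatives that left out no array. Many of these could not change, so the counts are no measure of stability. The fits per time and the filter on dim probes return the same difference as the fit without the block. So do the mean of a gene's probes where it has 1 probe, and the block where all 3 pairs have values. With the replicate block Hsp90b1 at 24 h was -0.0863, and it was -0.0679 with the trend along the probe numbers removed. With that trend removed some 48 h differences shrank, Asns from 0.243 to 0.094, Hsp90b1 from 0.26 to 0.0819 and Xbp1 from -0.368 to -0.109. Those of Pdia4 (0.569 to 0.589) and Hspa5 (-0.529 to -0.647) grew in size. With array weights, which give less weight to arrays that deviate, the 24 h differences were 1.11 for Xbp1, 1.21 for Hspa5, 0.13 for Herpud1, 0.31 for Dnajb9 and 0.025 for Trib3, and the 48 h difference of Xbp1 was 0.0162. Leaving out arrays, the 24 h ranges were -1.56 to 0.94 for Xbp1, -2.44 to 0.99 for Hspa5, -1.22 to 0.14 for Herpud1, -0.31 to 0.45 for Hsp90b1, -1.22 to 0.32 for Dnajb9, -0.40 to 0.40 for Trib3, -1.60 to -0.09 for Atf4, 0.39 to 1.17 for Ddit3, 0.50 to 1.18 for Pdia4 and -0.28 to -0.01 for Asns. Hspa5, Herpud1 and Dnajb9 were positive only without DMA 24 h replicate 3, Xbp1 also without DMSO 24 h replicate 1, and Trib3 only without DMSO 24 h replicate 2. Hsp90b1 turned negative at 24 h when DMA replicate 1, DMA replicate 2 or DMSO replicate 3 was left out. At 48 h the ranges were -0.78 to 0.25 for Xbp1, -0.53 to 0.78 for Herpud1 and -0.70 to 0.11 for Trib3, with Xbp1 and Trib3 positive only without DMA 48 h replicate 3, and Herpud1 negative without DMA replicate 1, DMSO replicate 2 or DMSO replicate 3. The others kept their sign at 48 h, with -1.10 to -0.08 for Hspa5, 0.09 to 0.45 for Hsp90b1, 0.22 to 0.92 for Pdia4, 0.02 to 0.43 for Dnajb9, -0.37 to -0.12 for Atf4, 0.075 to 0.15 for Ddit3 and 0.14 to 0.30 for Asns. The 48 h median over the members ran from -0.0602 to 0.13. Over all probes the calls ran from 0 to 14 at 24 h (14 when DMA replicate 2 of that time was left out and 9 when its replicate 1 was), from 0 to 3 at 48 h and from 0 to 4 for the difference between the times, with 0 members among them. Trib3 lies below the median level and had no value under the filter on dim probes. The cause of these shifts was not tested.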
